A study of Mus musculus with 2 samples.

Results

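The genes described here are 8 members of the cytotoxic lymphocyte programme: the granzymes Gzma, Gzmb and Gzmk, the pore-forming protein gene Prf1, the granule membrane gene Nkg7, the death ligand gene Fasl, the receptor gene Klrd1 and the surface protein gene Cd7. They were taken by name, with earlier results of these data known, and all 8 were present among the 32285 genes of both libraries. Each was read in cells with Cd3 transcripts, split by Trdc, Cd8b1 and Cd4, and in Cd3-negative NK-like cells, with antibody-secreting plasma cells as background.

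Single-cell RNA of mouse tissue was counted as unique molecular identifiers (UMIs, 1 per captured transcript) in 2 libraries. The normal library, WT, came from the duodenum of 3 mice with the genotype Lkb1+/+;Myh11-Cre/ERT2. For the polyp library, Lkb1_Het, polyps were taken from 3 mice with the genotype Lkb1flox/+;Myh11-Cre/ERT2. Both groups carried the ligand-inducible Cre under the smooth muscle gene Myh11. Whether the Cre acted in lymphocytes was not tested. The mice of a group were pooled and their cells cannot be told apart, the source label of both samples reads duodenum, and ages and induction were not given in the sources used here. With 1 library a group there is no replicate and no test: levels are given as CPM, the UMIs of a gene scaled to a total of 1000000 UMIs in its class, with exact Poisson intervals, shares carry Clopper-Pearson intervals and ratios exact conditional binomial intervals, all at 95% and all for counting error only.

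Cytotoxic lymphocytes store granzymes, a family of serine proteases, in granules together with perforin, which opens the target membrane to them. Natural killer cells, CD8 T cells and the gamma-delta T cells that lie between the epithelial cells of the small intestine are the main carriers of this programme. Intraepithelial lymphocytes of the gut are known for holding it ready without infection.

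The normal library held 39222238 UMIs in 9950 barcodes and the polyp library 63566462 in 14327. After filters on depth, mitochondrial UMIs and doublet scores, 3167 and 7887 barcodes were kept, with a median of 2421 and 2318 UMIs. Over 25% of UMIs were mitochondrial in 64.9% of normal and 39.1% of polyp barcodes, which were left out. The 2 libraries shared 44 barcode sequences, 9 of them among kept cells.

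Cd3-positive cells, with at least 2 UMIs of Cd3d, Cd3e and Cd3g and few genes of another lineage, numbered 829 in normal duodenum and 512 in the polyp, which is 26.2% and 6.49% of kept cells. All 10 T cell markers, among them Trac, Trbc1, Lck and the Cd3 genes of the gate itself, had UMIs in both. Their summed level was 7471 CPM in normal and 3532 CPM in polyp Cd3-positive cells. In the Trdc-positive cells described next it was 9490 and 2535 CPM. Trdc, a constant chain gene of the gamma-delta receptor, marked 139 normal and 40 polyp cells. Cd8b1, a chain of the CD8 co-receptor, marked 343 and 34, and Cd4 marked 43 and 76. UMIs of none of the 3 genes were found in 302 and 361 Cd3-positive cells, which may belong to any subset. Polyp T cells were shallower, with a median of 2204 against 3178 UMIs, and 172 of 512 had 5 or more Cd3 UMIs against 755 of 829. Barcodes in which pancreatic enzyme genes or rRNA-repeat genes took over 5% of UMIs made up 56.1% of polyp and 13.0% of normal Cd3-positive cells. Pooled, those of the polyp held 0.083% pancreatic enzyme and 6.70% rRNA-repeat UMIs, and those of normal duodenum 4.26% and 7.13%. The polyp barcodes called rich below were thus rich mainly in rRNA-repeat UMIs. All polyp Cd3-positive cells together held 43705 CPM of these repeats, near the cut, against 29205 CPM in normal ones. Values without the rich barcodes of both libraries are given below where a fold resting on polyp UMIs moved by over 1.5 times or changed a call. Floors for classes with 0 polyp UMIs include these barcodes. For Gzma in Trdc-positive cells the lower bound of the fold was 1222 with and 687 without them. In all Cd3-positive cells without them, 721 normal and 225 polyp, the 8 members were lower by 5.28-fold (Fasl) to 629-fold (Gzma).

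Promoters of the 3 granzymes are shown because members of 1 family differed between the libraries by very unlike factors. The table of promoters from RefSeq (GRCm38.p6) matched 6 of the 8 members, all but Klrd1 and Cd7. Shown are the 250 bases before the start in the direction of the gene, with matches to 4 motifs in capitals. Gzma lies at chr13:113100982-113101231, Gzmb at chr14:56262335-56262584 and Gzmk at chr13:113180966-113181215, all on the minus strand, and none of the 3 windows overlaps an exon of GENCODE M21. The Gzmk window follows the RefSeq start and lies inside the span that GENCODE gives for the gene.
Gzma: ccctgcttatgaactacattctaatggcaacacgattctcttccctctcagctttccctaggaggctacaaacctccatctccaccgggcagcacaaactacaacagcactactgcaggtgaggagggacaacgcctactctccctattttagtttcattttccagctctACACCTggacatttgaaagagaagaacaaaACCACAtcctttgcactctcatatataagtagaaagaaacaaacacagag
Gzmb: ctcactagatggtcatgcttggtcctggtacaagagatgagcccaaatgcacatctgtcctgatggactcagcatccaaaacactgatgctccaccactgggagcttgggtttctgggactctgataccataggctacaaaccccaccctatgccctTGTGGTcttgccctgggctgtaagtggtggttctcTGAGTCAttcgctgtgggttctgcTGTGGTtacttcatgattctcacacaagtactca
Gzmk: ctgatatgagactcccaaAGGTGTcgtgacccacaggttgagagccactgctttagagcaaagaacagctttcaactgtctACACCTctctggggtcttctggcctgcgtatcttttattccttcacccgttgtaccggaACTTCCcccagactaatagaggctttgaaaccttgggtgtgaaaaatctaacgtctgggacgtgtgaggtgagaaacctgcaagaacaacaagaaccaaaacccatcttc

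Searched on both strands were TGTGGT (Runx), AGGTGT (T-box), GGAAGT (ETS) and TGANTCA (AP-1, the same on both strands). The Gzma window held 1 Runx match, 50 to 45 bases before the start, and 1 T-box match at 80 to 75. The Gzmb window held 2 Runx matches, at 93 to 88 and 34 to 29, and the only AP-1 match among the 6 members, at 58 to 52. In the Gzmk window there were 2 T-box matches, at 232 to 227 and 169 to 164, and 1 ETS match at 110 to 105. Runx letters stood in 4 of the 6 windows against 14.05% of 32851 promoters of this length, T-box letters in 4 against 11.8%, ETS letters in 3 against 19.7% and AP-1 letters in 1 against 6.75%. These are matches of letters and do not show binding. Among the windows not shown, that of Prf1 overlaps 1 and that of Nkg7 2 exon entries of GENCODE M21.

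In Cd3-positive cells all 8 members were lower in the polyp by 2-fold or more, a call that 12.6% of the 9300 genes with at least 20 UMIs received. Their median log2 ratio was -3.16, beside -0.03 over all genes tested. The size ranged from 652-fold for Gzma to 3.09-fold for Fasl. This sum mixes subsets in other proportions in each library, so the subsets are also given one by one. As the members were chosen with earlier results known, their counts beside all genes, here and by subset, are descriptions and no test.

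Gzma (chromosome 13: 113093825–113100981), a granzyme that cleaves after basic residues, reached 17685 CPM (17535–17836) among normal Cd3-positive cells but 27.1 CPM (19.2–37.3) among those of the polyp. That is 652-fold lower (475–921). The polyp value rests on 38 UMIs in 7 cells, which held 16, 12, 5, 2, 1, 1 and 1, and without the first of them the fold was 1111. That first cell had 17870 UMIs in all, beside a median of 2204 in polyp Cd3-positive cells. In normal duodenum 677 of 829 cells had Gzma, with a median of 51 UMIs among them and a maximum of 586. After every cell was thinned to 1000 UMIs, 76.3% (73.1–79.2) of 800 normal and 0.797% (0.218–2.03) of 502 polyp cells had a UMI. Without thinning the shares were 81.7% and 1.37%.

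All 38 polyp Gzma UMIs lay in T cells with no Trdc, Cd8b1 or Cd4 UMI, and the 3 marked subsets had 0. Normal Trdc-positive cells held 35060 CPM (34563–35562), Cd8b1-positive cells 12911 (12715–13109) and Cd4-positive cells 4522 (4234–4825), and no 2 of these intervals overlap. With the polyp set to a floor of 3 UMIs, Gzma was 528-fold lower in Cd8b1-positive and 323-fold lower in Cd4-positive cells. In Trdc-positive cells the median gene was itself lower by 0.14 on the log2 scale, and relative to it Gzma was at least 1361-fold lower. By a floor of 3 cells, 0 of 39 thinned Trdc-positive polyp cells allow a share of up to 7.69%, 0 of 34 Cd8b1-positive cells one of 8.82% and 0 of 76 Cd4-positive cells one of 3.95%. The upper Clopper-Pearson bounds are wider, at 9.03%, 10.3% and 4.74%.

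Gzmb (chromosome 14: 56258838–56262260) encodes the granzyme that cleaves after aspartate and activates caspases. Normal Cd3-positive cells held 3015 CPM (2954–3078), polyp ones 50.7 CPM (39.6–64.0), 59.5-fold lower (47.1–76.2). The subsets ran in the same order as for Gzma in normal duodenum, with 4455 CPM in Trdc-positive, 3111 in Cd8b1-positive and 885 in Cd4-positive cells. Unlike Gzma, Gzmb kept UMIs in every marked polyp subset: 101.1 CPM in Trdc-positive, 163 in Cd8b1-positive and 46.6 in Cd4-positive cells. The polyp Trdc value came from 13 UMIs in 2 cells, of which 1 held 12, so its 39.9-fold lower level relative to the median gene (44.1 unscaled) became 556-fold unscaled without that cell. That cell was not among the barcodes rich in pancreatic enzyme or rRNA-repeat UMIs, and without those the unscaled fold was 26.8 (15.3–52.0). Cd8b1-positive polyp cells were broader, with 20 UMIs in 7 of 34 cells and no cell above 5, a 19.1-fold difference (12.3–31.3). Of the 20 UMIs, 10 lay in barcodes rich in pancreatic enzyme or rRNA-repeat UMIs, and the fold was 29.3 (15.9–61.1) without and 7.07 (3.75–15.01) within them. After thinning, 14.7% (4.95–31.1) of these cells had Gzmb against 70.0% (64.8–74.8) in normal duodenum.

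Gzmk (chromosome 13: 113171608–113225908), a granzyme with trypsin-like activity in the same gene cluster as Gzma, showed the smallest granzyme difference. Normal Cd3-positive cells held 206 CPM (190–223) and polyp ones 36.4 CPM (27.1–47.9), 5.66-fold lower (4.25–7.68). Without the barcodes rich in pancreatic enzyme or rRNA-repeat UMIs the fold was 8.81, and within those barcodes it was 2.40 (1.40–4.12). Unlike Gzma and Gzmb, it was higher in Cd8b1- than in Trdc-positive normal cells: Cd8b1-positive cells held 302 CPM (273–333), Cd4-positive 208 (150–281) and Trdc-positive 86.8 (63.8–115), and Cd8b1-positive cells were 3.48-fold above Trdc-positive ones (2.56–4.81). The Cd4-positive level rests on 3 of 43 cells, which held 15, 10 and 10 of its 42 UMIs. In the polyp, 8 UMIs in Cd8b1-positive cells gave 65.2 CPM, 4.63-fold lower (2.32–10.8), and 38 of the 51 UMIs lay in T cells with none of the 3 genes. In Cd4-positive cells the 11.1-fold lower level (4 polyp UMIs) became 22.0-fold without 1 cell with 2 of them, and all 4 lay in barcodes rich in pancreatic enzyme or rRNA-repeat UMIs.

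Prf1 (chromosome 10: 61297833–61304680), the perforin gene, was scarce in both libraries. It stood at 25.9 CPM (20.5–32.3), 78 UMIs in 70 cells, in normal and at 5.71 CPM (2.47–11.3), 8 UMIs in 7 cells, in polyp Cd3-positive cells, 4.53-fold lower (2.19–10.9). Of the 8 polyp UMIs, 6 lay in barcodes rich in pancreatic enzyme or rRNA-repeat UMIs, and without those the ratio was 10.4-fold lower (2.78–87.7). Plasma cells, which should lack perforin, held 4.198 CPM (2.01–7.72) in normal duodenum and 4.45 CPM (2.13–8.18) in the polyp. The polyp T cell interval overlaps that of polyp plasma cells, and the normal one does not overlap that of normal plasma cells. After thinning, 3.63% of normal and 0.996% of polyp T cells had a UMI, beside 0.733% of polyp plasma cells. In normal duodenum the 3 subsets were not separable, with 31.4 CPM (18.3–50.3) in Trdc-positive, 25.7 (17.7–36.1) in Cd8b1-positive and 14.8 (3.06–43.3) in Cd4-positive cells. The polyp subsets held 0, 1 and 3 UMIs, so no fold is drawn in Trdc- or Cd4-positive cells. The 3.15-fold lower value in Cd8b1-positive cells has an interval across 1 (0.527–128). Its 1 polyp UMI lay in a barcode rich in pancreatic enzyme or rRNA-repeat UMIs.

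**Figure D1:**
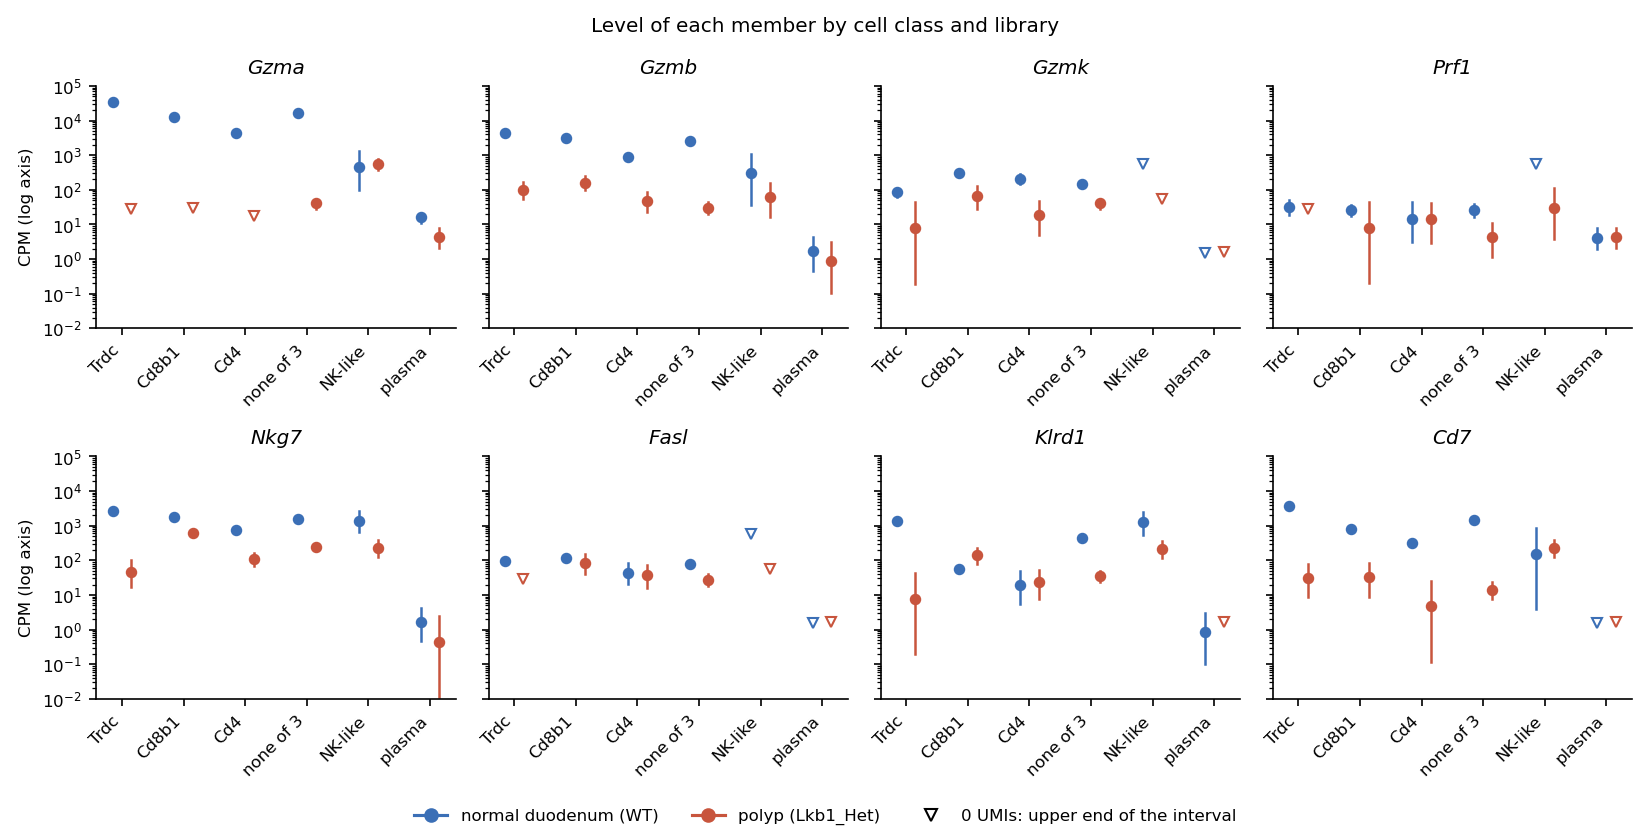
Level of each member in CPM (log axis) in T cells with Trdc, Cd8b1, Cd4 or none of the 3, in NK-like and in plasma cells, for the normal (blue) and polyp (red) library; bars are exact Poisson intervals at 95% and open triangles mark the upper end where a class held 0 UMIs. Gzma in normal T cells sits at 4522 CPM or more, and the polyp subsets with a marker gene hold 0 UMIs, whereas Klrd1 in Cd8b1-positive cells is higher in the polyp.

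Nkg7 (chromosome 7: 43437073–43438249) encodes a granule membrane protein needed for efficient degranulation. Cd3-positive cells of the normal library held 1817 CPM (1769–1866) and those of the polyp 233 CPM (208–260) in 130 of 512 cells, 7.80-fold lower (6.98–8.75). The difference was uneven over the subsets. Cd8b1-positive cells went from 1778 CPM (1705–1852) to 612 (481–767), 2.91-fold lower (2.31–3.71), with UMIs in 26 of 34 polyp cells and a maximum of 12. Trdc-positive cells went from 2720 CPM to 46.7, from 6 UMIs in 2 of 40 cells, 52.8-fold lower relative to the median gene (24.2–144). Without the cell with 4 of these UMIs the unscaled fold moved from 58.3 to 169.9. Cd4-positive cells went from 766 to 107 CPM, 7.14-fold lower (4.59–11.6), but 18 of the 23 polyp UMIs lay in barcodes rich in pancreatic enzyme or rRNA-repeat UMIs. Without those the fold was 19.9 (8.34–62.3), and within them 3.25 (1.496–6.92). In the polyp, Nkg7 was 13.1-fold higher in Cd8b1- than in Trdc-positive cells (5.75–36.9), whereas in normal duodenum it was 1.53-fold higher in Trdc-positive cells (1.43–1.63).

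Fasl (chromosome 1: 161780689–161788495), whose product triggers the death receptor Fas, had the smallest fold of the 8 members over all Cd3-positive cells. Cd3-positive cells had 97.2 CPM (86.4–109.0) of it in the normal library, against 31.4 CPM (22.8–42.2) for the polyp, 3.09-fold lower (2.25–4.35). The fold was 5.28 (3.14–9.57) without barcodes rich in pancreatic enzyme or rRNA-repeat UMIs and 2.39 (1.36–4.18) within them. No UMI was found in polyp Trdc-positive cells, at least 3.80-fold lower than the normal 97.9 CPM relative to the median gene. Cd8b1-positive cells held 118 CPM (100.2–139) and 81.6 CPM (39.1–150), and the ratio of 0.690 has an interval across 1 (0.324–1.30). Without the polyp cell with 3 UMIs the same ratio was 0.494, and without barcodes rich in pancreatic enzyme or rRNA-repeat UMIs it was 0.368. Under either change the call would turn from neither to lower. Without the rich barcodes the fold was 2.72 (1.04–10.1) on 4 polyp UMIs. Within them the level was not lower, with a fold of 0.693 (0.228–2.32). Cd4-positive cells had 9 and 8 UMIs, too few for a call, and plasma cells had 0 in both libraries.

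Klrd1 (chromosome 6: 129591782–129598775) encodes CD94, the partner chain of NKG2 receptors. In normal duodenum it separated the subsets more than any other member: 1399 CPM (1301–1502) in Trdc-positive, 56.0 (43.8–70.5) in Cd8b1-positive and 19.8 (5.39–50.6) in Cd4-positive cells. The first value was 24.97-fold the second (19.6–32.3). After thinning, 71.7% of Trdc-positive and 4.41% of Cd8b1-positive normal cells had a UMI. Polyp Trdc-positive cells held 1 UMI, 7.78 CPM, in a barcode rich in pancreatic enzyme or rRNA-repeat UMIs, so the normal level was 163-fold higher relative to the median gene (29.1–6443).

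Klrd1 in Cd8b1-positive cells was the 1 member value called higher in the polyp among the T cell subsets and NK-like cells, in a class where 12.7% of 5535 genes were called higher and 22.6% lower. The level was 139 CPM (80.8–222) against 56.0, 2.48-fold higher (1.37–4.24). It came from 17 UMIs in 7 of 34 cells, of which 1 held 7. Without that cell the ratio was 1.67, and without the barcodes rich in pancreatic enzyme or rRNA-repeat UMIs it was 1.84, neither past 2-fold. Thinned shares were 8.82% (1.86–23.7) in the polyp and 4.41% (2.49–7.17) in normal duodenum, with overlapping intervals. Cd4-positive cells had 5 and 4 UMIs and no call.

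Cd7 (chromosome 11: 121036747–121039418), an immunoglobulin-family surface protein of T and NK cells, came next to Gzma in the size of its difference. Normal Cd3-positive cells had 1526 CPM (1482–1570) and polyp ones 15.7 CPM (9.85–23.8), 97.1-fold lower (64.1–155). The polyp value rests on 22 UMIs in 13 cells, 7 of them in 1 cell that also held the most Gzma, and without it the fold was 141. That cell had 17870 UMIs in all, 5 of them Cd3 UMIs. Normal Trdc-positive cells held 3681 CPM (3521–3846), 4.46 times the 825 CPM of Cd8b1-positive cells (4.14–4.81), and Cd4-positive cells 321. The polyp subsets held 4, 4 and 1 UMIs (those of Trdc- and Cd4-positive cells all in barcodes rich in pancreatic enzyme or rRNA-repeat UMIs), 107-fold (relative to the median gene), 25.3-fold and 68.9-fold lower. In Trdc- and Cd8b1-positive cells 1 cell held 2 of the 4 UMIs, and without it the unscaled folds were 232 (118 with it) and 44.8. Without barcodes rich in pancreatic enzyme or rRNA-repeat UMIs, Cd7 in Cd3-positive cells was 79.0-fold lower (48.6–138).

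Read by subset, 7 of 7 members with enough UMIs were lower in Trdc-positive cells, where 24.2% of 3646 genes were called lower. The 7 include Gzmk with 1 polyp UMI, 11.2-fold lower unscaled (1.91–450). That UMI lay in a barcode rich in pancreatic enzyme or rRNA-repeat UMIs. In Cd8b1-positive cells 6 of 8 were lower, 1 higher and 1 neither, beside 22.6% and 12.7% of 5535 genes, and the 6 include Prf1 with 1 polyp UMI. The calls of Klrd1 (higher) and Fasl (neither) both changed without 1 polyp cell or without the rich barcodes, as given above. In Cd4-positive cells 5 of 5 with enough UMIs were lower, beside 12.1% of 2493 genes called lower and 9.35% higher. Prf1 in Trdc-positive, and Prf1, Fasl and Klrd1 in Cd4-positive cells had under 20 UMIs in all. The plot of ratios shows that Gzma, Gzmb and Cd7 lay under 0.1 in each T cell class drawn, while Nkg7, Fasl and Klrd1 spread widely between Trdc- and Cd8b1-positive cells.

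**Figure D2:**
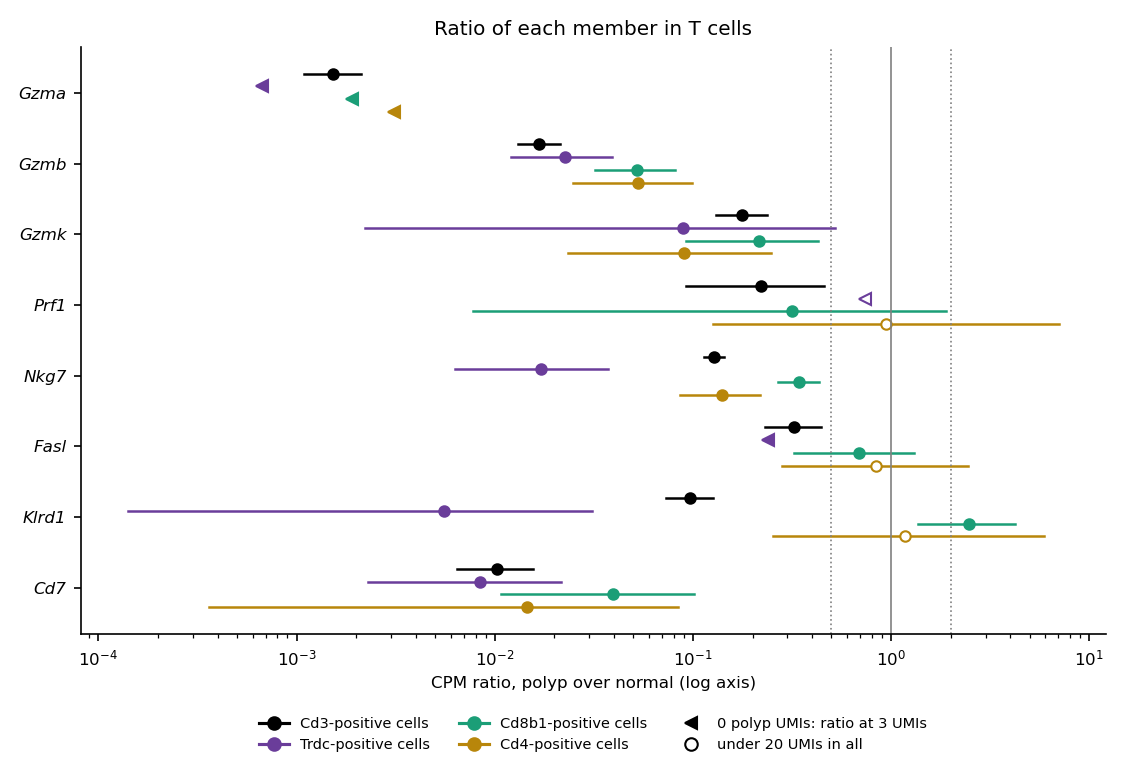
CPM ratio of polyp over normal (log axis) for each member in Cd3-positive, Trdc-positive, Cd8b1-positive and Cd4-positive cells with exact conditional binomial intervals at 95%; triangles put a class with 0 polyp UMIs at the floor of 3 UMIs, open symbols have under 20 UMIs, and dotted lines mark 2-fold. Gzma, Gzmb and Cd7 lie far left in every class, and Klrd1 in Cd8b1-positive cells lies at 2.48.

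The Trdc-positive cells of the 2 libraries differed in other genes too. Cd8a, whose homodimer marks intraepithelial gamma-delta cells, stood at 1092 CPM in 128 of 139 normal cells and at 0 UMIs in the polyp. Fcer1g, a signalling adaptor, went from 3008 CPM to 0 UMIs and Tyrobp, another adaptor, from 1800 to 23.3 CPM. Rora went from 25.9 to 638 CPM, Il7r from 22.2 to 288 CPM and the variable segment Trdv4 from 22.2 to 233 CPM. The 5 gamma-delta markers, Trdv4 and the gate gene Trdc among them, went the other way as a sum, from 2899 to 1493 CPM. The fixed list of 8 innate lymphoid markers, which holds Rora and Il7r, summed to 96.1 CPM in normal and 1516 CPM in polyp Trdc-positive cells. For all Cd3-positive cells this sum was 334 and 1168 CPM. The share of these marker differences in the member differences was not tested.

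Normal Cd4-positive cells were few but not free of granzymes: 24 of 43 had Gzma and 22 had Gzmb. Of these 43, 6 cells also had Cd8a, and they held 341 of the 915 Gzma UMIs, at 20896 CPM against 3086 CPM in the other 37. Cd7 was 2390 against 140 CPM and Nkg7 3003 against 570 CPM in the same split. No polyp Cd4-positive cell had Cd8a. This split was made after the values had been seen.

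Members were found together in single normal cells. After thinning to 1000 UMIs, 72.5% of normal Cd3-positive cells (580 of 800) had UMIs of 3 or more members, with a median of 4. The share was 95.7% (132 of 138) in Trdc-positive, 72.6% (247 of 340) in Cd8b1-positive and 36.6% (15 of 41) in Cd4-positive cells. In the polyp 5 of 502 Cd3-positive cells (0.996%) had 3 or more, and 374 had none. Polyp Cd8b1-positive cells stood apart from the other polyp T cells, since 10 of 34 had none, against 35 of 39 Trdc-positive and 60 of 76 Cd4-positive cells. Plasma cells with 3 or more members numbered 0 of 133 and 0 of 273.

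**Figure D3:**
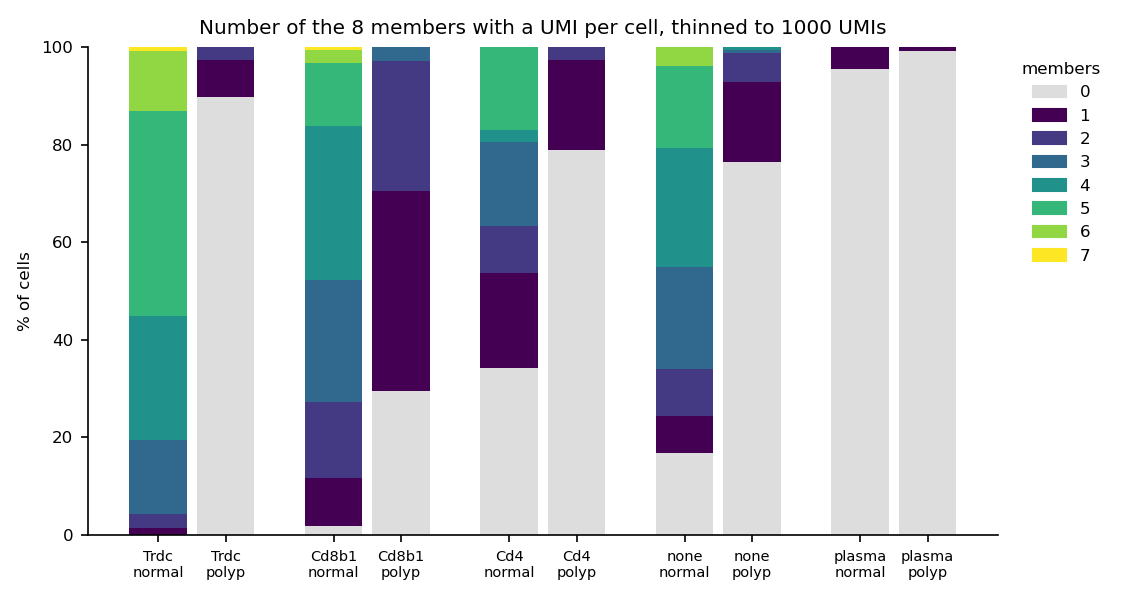
Percent of cells by the number of members with a UMI, after thinning each cell to 1000 UMIs, for T cells with Trdc, Cd8b1, Cd4 or none of the 3 and for plasma cells in both libraries; grey is 0 members. In normal Trdc-positive cells 95.7% reach 3 or more, and in the polyp grey takes most of every column but Cd8b1.

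Gzma and Gzmb were often found in the same cell. In normal Cd3-positive cells 496 of 800 had both Gzma and Gzmb, and Gzmb was found in 81.3% of cells with Gzma against 8.42% of those without. For Gzma and Nkg7 these shares were 84.9% and 51.1%, and for Gzma and Klrd1 24.8% and 13.7%. These shares pool the subsets. For Klrd1 they were 71.1% with and 76.5% without Gzma in Trdc-positive and 3.61% and 7.94% in Cd8b1-positive cells. The order was reversed in Cd4-positive cells (15.8% and 0%) and in cells with none of the 3 genes (26.6% and 9.2%). For Nkg7 they were 92.6% and 88.2% in Trdc-positive and 80.5% and 71.4% in Cd8b1-positive cells. The Nkg7 gap was wider in Cd4-positive cells (89.5% and 13.6%) and in cells with none (85.9% and 37.9%). In the polyp no thinned Cd3-positive cell had both Gzma and Gzmb, and before thinning 2 of the 7 cells with Gzma also had 1 Gzmb UMI. As shares per cell rise with the capture of each cell, these figures describe the cells and carry no test.

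**Figure D4:**
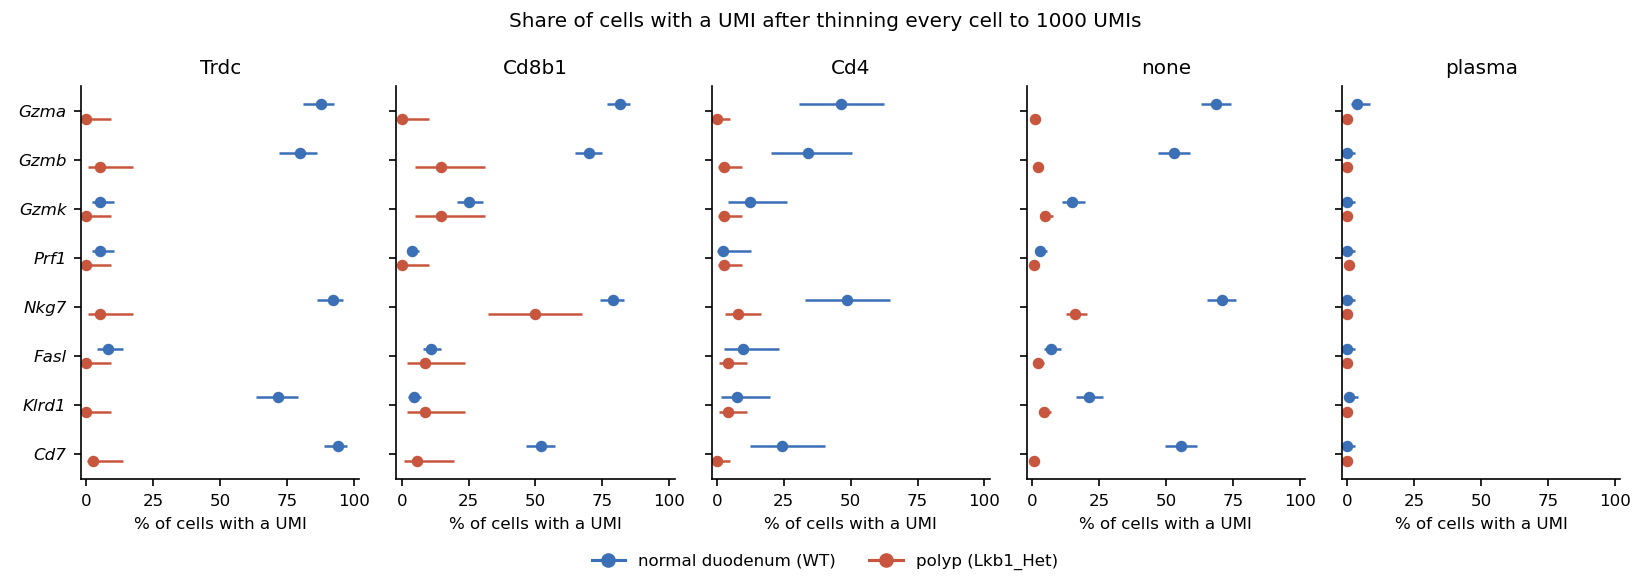
Percent of cells with a UMI of each member after thinning to 1000 UMIs, with Clopper-Pearson intervals at 95%, for 4 T cell classes and plasma cells in the normal (blue) and polyp (red) library. Gzma, Gzmb, Nkg7 and Cd7 part the libraries in each T cell class, although the Nkg7 gap in Cd8b1-positive cells is narrow (78.8% and 50.0%), and plasma cells stay at or under 3.76%.

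NK-like cells, Cd3-negative with at least 2 UMIs of 9 killer receptor genes such as Ncr1 and Klrb1c, were rare: 2 in normal duodenum and 14 in the polyp. The polyp class was mixed, since Ncr1 was found in 8 and Eomes in 1 of the 14 cells, Tyrobp and Fcer1g in 13 each, and Cd74, the invariant chain of MHC class II, in 6 cells at 4003 CPM. Among them Gzma came from 2 cells with 27 and 9 UMIs, the latter among 23838 UMIs in all, Prf1 from 2 cells with 1 UMI each, and Nkg7 and Klrd1 from 7 cells each. The cell with 27 Gzma UMIs also had 3 Gzmb, 5 Nkg7 and 1 Prf1 UMIs, among 2182 in all. That cell had more Gzma UMIs than any polyp T cell.

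In the normal library 1 NK-like cell held 3 Gzma, 2 Gzmb and 4 Klrd1 UMIs and the other 9 Nkg7 and 4 Klrd1 UMIs. Of 3 members with enough UMIs, Nkg7 (1399 against 228 CPM) and Klrd1 (1243 against 213 CPM) were called lower, 5.67-fold and 5.40-fold relative to a median gene lower by 0.11 on the log2 scale, and Gzma was called neither way (466 against 548 CPM), beside 17.2% of 443 genes called lower and 31.6% higher. With 2 normal cells these levels describe single cells: with 1 gate UMI required instead, 11 and 34 cells gave ratios of 1.04 for Nkg7 and 1.61 for Klrd1, on the other side of 1. Gzmk and Fasl had 0 UMIs in all 16 cells. Without barcodes rich in pancreatic enzyme or rRNA-repeat UMIs, 1 normal and 8 polyp cells were left, and every member had under 20 UMIs. There Nkg7 was 70.1-fold (14.5–667) and Klrd1 8.90-fold lower (1.91–35.0), both unscaled, and Gzma had 0 normal and 9 polyp UMIs.

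Background in plasma cells was low for most members. Gzma measured 16.0 CPM (11.3–21.9) in plasma cells of the normal and 4.45 CPM (2.13–8.18) in those of the polyp library, Gzmb at 1.68 and 0.890, Nkg7 at 1.68 and 0.445, and Gzmk, Fasl and Cd7 at 0 UMIs. Plasma cells had a median of 18150 and 7520 UMIs, deeper than the T cells, and 23.4% of normal ones had a Gzma UMI before and 3.76% after thinning. Other normal barcodes held more Gzma than plasma cells. Epithelial cells had 27.8 CPM. Barcodes outside the other classes and rich in pancreatic enzyme or rRNA-repeat UMIs had 203 CPM, 431 UMIs in 257 of 1259. The same 2 classes of the polyp held 0 and 4 Gzma UMIs. How far stray UMIs raise the shares of normal cells was not tested. Gzma in polyp Cd3-positive cells (27.1 CPM) lay above the polyp plasma level and its interval overlaps the normal one, although the polyp T cell share of 0.797% (0.218–2.03) overlapped the 0 of 273 thinned polyp plasma cells (an upper Clopper-Pearson bound of 1.34%). In normal T cells there were 5.87 Gzma UMIs for each Gzmb UMI, and 9.50 (3.42–36.6) in normal plasma cells. For each Prf1 UMI there were 683 Gzma UMIs in normal T cells but 3.80 (1.86–8.55) in normal plasma cells, so the plasma Prf1 UMIs do not keep the ratio of the T cells.

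Cd3-positive cells held a smaller share of the member UMIs in the polyp. They were also a smaller share of kept cells, 6.49% against 26.2% in normal duodenum. Such shares depend on how many cells of each class were captured, as well as on their levels. In normal duodenum 97.8% of the 54481 Gzma UMIs of kept barcodes lay in Cd3-positive cells. Of 97 polyp Gzma UMIs, 38 lay in Cd3-positive, 36 in NK-like and 10 in plasma cells. Of 123 polyp Gzmb UMIs, 71 lay in Cd3-positive cells, 15 in 3 cells passing the mast gate (over 1% of UMIs from genes such as Cpa3 and Mcpt1) and 11 in 1 cell with Cd3 and another lineage. Klrd1 had 57 of 183 UMIs in Cd3-positive cells and 83 in 37 of 469 cells with over 1% of UMIs from Cd74, H2-Aa, H2-Ab1 and H2-Eb1. Cd7 had 43 of 135 UMIs in 22 cells of that same class and 22 in Cd3-positive cells. The class II class numbered 50 cells in normal duodenum and 469 in the polyp, and NK-like cells 2 and 14. The class II and mast gate classes were added after values had been seen.

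**Figure D5:**
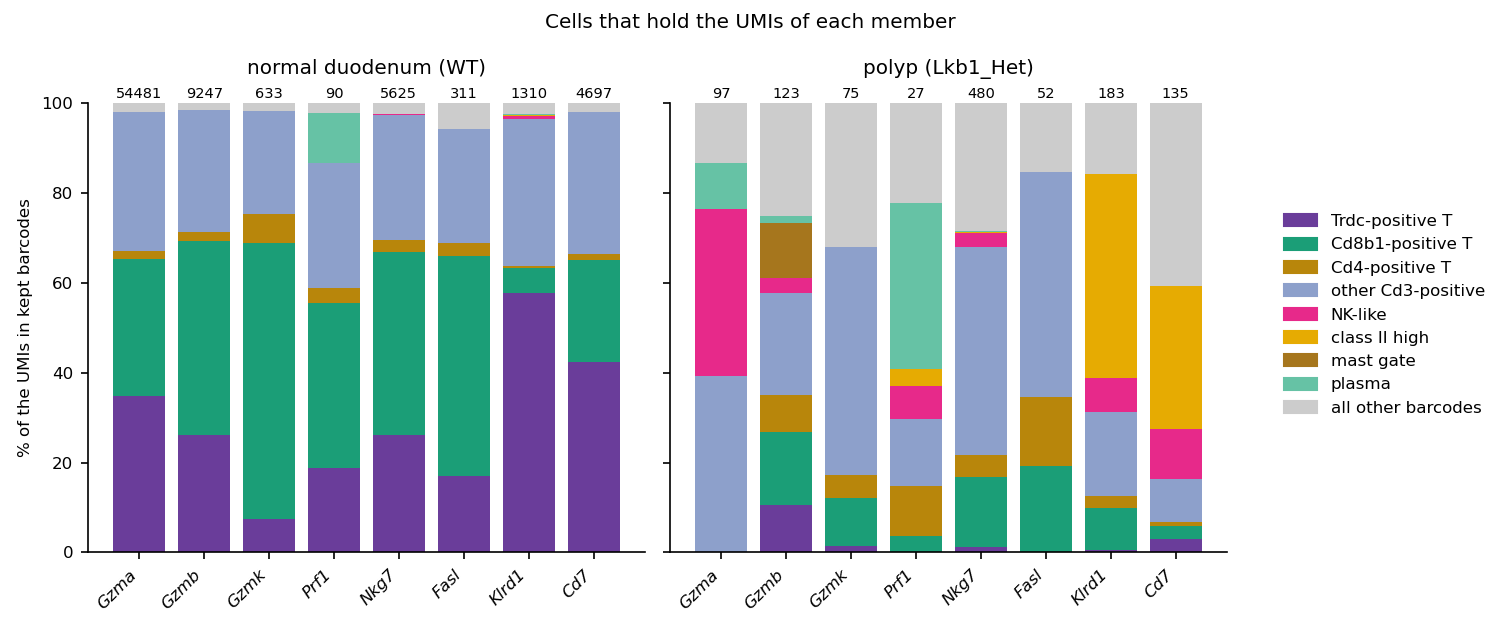
Percent of each member's UMIs in kept barcodes by the class of cell that held them, for both libraries, with the number of UMIs above each bar. Cd3-positive cells hold nearly all normal UMIs but for Prf1, whereas in the polyp Gzma is shared with NK-like cells and Klrd1 and Cd7 with cells high in MHC class II genes.

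Among 66 further genes of the cytotoxic pathway, 53 had at least 20 UMIs in Cd3-positive cells, and 26 were lower and 10 higher by 2-fold or more, beside 12.6% and 11.9% of all genes. Their median ratio was 0.512. This list too was chosen with earlier results of these data known, so its counts beside all genes are descriptions. The parts of the list differed: all 7 tested genes of intraepithelial residence were lower, whereas of 8 granule release genes none was lower and 4 were higher. Of the 8 death ligand and effector cytokine genes 6 were lower and 2 higher, of 14 receptors and adaptors 7 and 2, of 7 transcription factors 2 and 2, of 6 granule proteins and proteases 3 and 0, and of 3 serpin inhibitors 1 and 0. In Trdc-positive cells 24 of 38 tested were lower and 4 higher, beside 24.2% and 11.9% of all genes. In Cd8b1-positive cells 20 of 43 were lower and 5 higher, beside 22.6% and 12.7%, and in Cd4-positive cells 12 of 27 and 3, beside 12.1% and 9.35%. The numbers of higher genes in these 3 subsets are thus near the background.

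The lowest ratios of this list belonged to Fcer1g (875 against 5.00 CPM, 175-fold lower, 84.9–436), Tyrobp (505 against 11.4 CPM, 44.2-fold) and Cd160 (400.2 against 9.28 CPM, 43.1-fold). Cd8a (680 against 23.6 CPM) was 28.8-fold lower, and Cd244a (59.1 CPM against 2.14, 3 UMIs) 27.6-fold lower (9.28–135). The first pair are signalling adaptors and Cd160 and Cd244a are receptors of cytotoxic cells. Among genes of the list with at least 50 UMIs, which also holds for the lowest ratios above, the highest were Eomes, a T-box factor of memory CD8 T and NK cells, at 5.97 against 45.7 CPM (7.65-fold higher, 4.48–13.7), and Stx11 and Lyst, both needed for granule release, at 5.89-fold and 5.65-fold higher. Cd2, an adhesion receptor, was 3.99-fold higher (3.31–4.83) and the transcription factor gene Bhlhe40 3.76-fold higher (3.39–4.16). Eomes was higher in a subset where Gzma was at 0: polyp Cd8b1-positive cells held 163 CPM in 8 of 34 cells against 11.7 CPM in normal ones.

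In NK-like cells 3 genes of the list with at least 50 UMIs went the other way than in Cd3-positive cells. The chemokine gene Ccl4 had 307 UMIs in the 14 polyp cells and 1 in the 2 normal cells, and 184 of the 307 lay in 1 cell that had no granzyme UMI. Id2 (1243 against 715 CPM) and Bhlhe40 (1243 against 807 CPM) had intervals across 1.

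The genes whose levels most resembled a member were ranked by Pearson correlation of log2(CPM + 10) over 12 class and library pairs with at least 20 cells, among 5721 genes. As the pairs share 2 libraries, and normal T cell classes set most of the contrast, these are descriptions. For Gzma they were 1810041H14Rik (0.970), Abi3 (0.962), 4930453N24Rik (0.953), Itgae (0.950), the integrin that binds E-cadherin, and Armc1 (0.938). For Gzmb they were Cd72 (0.990), Tcrg-C2 (0.986), Ubac2 (0.985), Cd160 (0.976) and Trgv2 (0.972). For Prf1 they were Itgb1bp1 (0.949), Gimap7 (0.944), Trat1 (0.931), the protease gene Ctsw (0.927) and H2-T23 (0.927), the class I molecule seen by CD94 receptors. Between members the highest value was that of Gzmb and Cd7 (0.973) and the lowest that of Gzmk and Klrd1 (0.692).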

How the data were processed

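Single cells were captured with 10x 3′ v3 chemistry, per the labels' protocols. The deposited values are UMI counts per gene and barcode, made by the authors with Cell Ranger, whose version is 5.0.0 per the file headers and 3.0.0 (mm10) per the submitters' processing notes; the annotation release is not given in the sources used here. Barcodes under 500 UMIs, under 250 genes or over 25% mitochondrial UMIs were dropped. The doublet caller (scanpy 1.11.5) marked 0 barcodes in either library at its automatic threshold, so the highest scores were removed, 85 and 573 barcodes. Barcodes with over 1% of UMIs from epithelial, myeloid or mast genes or over 5% from immunoglobulin genes were left out of T and NK-like classes. Trdc-, Cd8b1- and Cd4-positive cells had at least 1 UMI of that gene and 0 of the other two. Plasma cells had at least 5% immunoglobulin UMIs and 2 secretory genes.

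UMIs were summed per class and library. A gene was called lower or higher at a 2-fold ratio with at least 20 UMIs over both libraries, and a class at 0 UMIs was set to a floor of 3. Shares of cells were compared after thinning each cell to 1000 UMIs. Interval and call code was tested on simulated data. Python 3.11.15, numpy 2.4.6, scipy 1.17.1, pandas 2.3.3 and matplotlib 3.10.9 were used. Positions are those of GENCODE M21 on GRCm38. The named genes are all 8 members, the 5 pathway genes with the largest and the 5 with the smallest ratio among those with at least 50 UMIs, those opposite in NK-like cells, and the 5 genes most like Gzma, Gzmb and Prf1. The members and lists were chosen with earlier results of these data known. Alternatives to the filters, gates, doublet removal, scaling, thinning and UMI minimum were run.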

Additional observations from a re-analysis of the deposited data

Results flagged for a closer look

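Klrd1 was 2.48-fold higher in the polyp in Cd8b1-positive cells (139 against 56.0 CPM) and lower in Trdc-positive cells (1 polyp UMI, 7.78 against 1399 CPM), so the 2 subsets went opposite ways. With 1 library a group this difference was not tested. The ratio in Cd8b1-positive cells was 1.67 without 1 polyp cell that held 7 of the 17 UMIs.

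Klrd1 also appeared outside the classes compared, at 58.9 CPM (46.9–73.0) in 469 polyp cells high in MHC class II genes, where 37 cells held 83 UMIs. The 50 normal cells of that kind had 17.9 CPM (4.89–45.9), from 4 UMIs, and polyp plasma cells had 0 UMIs.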

How the results depend on the processing

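Of 76 recomputed counts of members called lower, 70 stayed within 1.5 times the reported count. The other 6 were 5 counts in NK-like cells and 1 in Cd4-positive cells. In NK-like cells, where 2 members were called lower, the count was 0 without barcodes rich in pancreatic enzyme or rRNA-repeat UMIs (1 and 8 cells), 1 with at least 3 gate UMIs (2 and 10 cells), and 0 with a minimum of 50 UMIs. Under 2 alternatives chosen after seeing the data it was 0, with at least 1 gate UMI (11 and 34 cells) and without the polyp cell with the most UMIs of each member. With at least 1 gate UMI the ratios of Nkg7 and Klrd1 also changed side, to 1.038 and 1.606. In Cd4-positive cells the count was 1 in place of 5 when 2 UMIs of the subset gene were required (6 and 14 cells). Fewer cells, UMIs or genes entered these counts, apart from the wider gate, for which the cause was not tested.

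Of 411 recomputed member ratios, 374 moved by less than their counting interval, 35 moved by more and 2 changed side. The Gzma ratio in Cd3-positive cells ranged from 0.0009 to 0.00254, and that of Klrd1 in Cd8b1-positive cells from 1.67 to 3.44. Requiring no T cell receptor constant UMI left 0 normal NK-like cells and gave no value. No paired analysis was possible because each group is 1 library and the labels carry no replicate numbers; for the same reason no replicate could be left out. Polyp subsets of 34 to 76 cells limit what can be seen: by a floor of 3 cells, 0 cells with a UMI allow a share of up to 3.95% to 8.82%.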
